A study of Rattus norvegicus with 43 samples.

Results

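These data describe how the foreskin of unexposed rats differed between gestational day 20 (GD20), shortly before birth, and postnatal day 5 (PND5). They come from a study of dibutyl phthalate (DBP), an anti-androgenic plasticizer given to pregnant Sprague Dawley rats, and only the vehicle controls enter the comparison described here: 19 of the 43 arrays of the series. Every dam of these 19 litters had been given corn oil by daily gavage on gestational days 16 to 20, so the vehicle and the dosing days are shared by all groups. The time from the last dose to sampling differed with age and cannot be told apart from it. Of the 19 samples, 7 were PND5 litters, 6 were GD20 litters that served as controls for a DBP dose of 100 mg/kg/day (the DBP100 study), and 6 were GD20 litters that served as controls for 500 mg/kg/day (the DBP500 study). One sample was the pooled RNA of 2 foreskins of 1 litter, hybridised to an Illumina RatRef-12 beadchip, so the litter is the replicate and the spread between the littermates is averaged out. The remaining 24 arrays, from DBP litters of both ages, also entered the normalization, the detection filter and the common estimate of spread. Those of PND5 entered the comparison of PND5 array sets, and the age differences of DBP litters are given near the end.

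The foreskin, or prepuce, is a fold of skin over the glans. Its outer surface is epidermis with hair follicles over a dermis of fibroblasts and collagen, its inner surface is a mucosa-like epithelium, and smooth and striated muscle, vessels and nerves run through it. Around birth, rodent epidermis completes its cornified layer, a sheet of dead cross-linked keratinocytes and lipid that holds water in, while hair follicles go on from buds to shaft-producing organs. Fetal rodent tissue also carries circulating red cell precursors and cells that divide quickly, and red cell production leaves the liver for the bone marrow around the same time.

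On the 19 arrays the median probe signal lay between 102.9 and 185.2 and between 10029 and 12016 of 22523 probes were detected. Of these probes, 13577 were tested, and 9570 of those carry 1 gene symbol. Levels below are log2 normalized signals, with the limit of detection between 5.30 and 5.74 depending on the array, and levels of different probes are not compared with each other. The 19 arrays were separated by age on the first principal component, which held 62.7% of the variance: GD20 arrays lay between -49.4 and -23.8 and PND5 arrays between 58.6 and 65.1. The GD20 controls came from separate studies whose arrays form separate sets, and no PND5 array belongs to either. Age and array set therefore cannot be told apart, also when both GD20 groups are used, since both are compared with the same PND5 arrays. Defining markers of skin were detected on every array, although they do not tell foreskin from other skin. Krt14 (keratin of basal epidermis) ranged from 13.57 to 14.39 over all 19 arrays and Col1a1 (the main dermal collagen) from 13.98 to 14.72.

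Which genes differed with age? In limma's moderated test with Benjamini-Hochberg adjustment, 8368 of the 13577 probes (61.6%) passed an adjusted p of 0.05 in the comparison of PND5 with the mean of the GD20 groups, 3624 higher (26.7%) and 4744 lower (34.9%) at PND5. A change is said to hold here, and a gene to have risen or fallen, only if it also passed with the same sign against each GD20 group on its own. That was so for 5831 probes (42.9%), of which 2709 were higher (20.0%) and 3122 lower (23%). Taken alone, the comparison with the DBP100 study passed for 7424 probes (54.7%) and that with the DBP500 study for 8059 (59.4%). The shares that held are the background against which every count of genes below is to be read. Without any overlap between the 7 PND5 arrays and the 12 GD20 arrays were 1472 higher probes (10.8%) and 1388 lower probes (10.2%). Among the changes that held, 1208 (8.90% of tested probes) were at least 2-fold up and 869 (6.40%) at least 2-fold down.

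The largest changes were rises: 141 probes that held were over 8-fold higher, and 19 were over 8-fold lower. For comparison, the GD20 control groups, of the same age and treatment, differed from each other in 2991 probes (22.0%), 1402 higher (10.3%) and 1589 lower (11.7%) in the DBP500 study. The median absolute log2 difference was 0.390 between ages and 0.218 between the GD20 studies. Within PND5, replicates 1 to 4 and 5 to 7 differ in their highest scanner signal and were treated as array sets. That signal was 40826 to 54444 on the GD20 arrays and 15919 to 28507 on the PND5 arrays, without overlap, so this feature of the scans cannot be told apart from age. Between the PND5 sets 3 probes passed (0.0221%, with 1146 at an unadjusted p under 0.05) in a separate limma fit of all 21 PND5 arrays, DBP litters included. Of the 5831 probes that held, 5829 kept their sign in all 4 pairings of a PND5 set with a GD20 study. The pairings reuse the arrays by which holding was defined, so this agreement was nearly fixed in advance.

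The balance of rises and falls depends on the scaling. The median log2 difference over all tested probes was -0.09 after quantile normalization. It was -0.28 when each array was only shifted to the same median, where 2576 probes passed as higher and 6302 as lower, so that the share of higher calls went from 43.3% to 29%. Several gene families moved under that scaling, and the counts after this median shift are given beside those it moved most. Fold sizes of dim genes also depend on how background is treated. A set of 176 named genes, most but not all of those described here, was followed through the alternatives, and 163 of them held. Of these, 74 moved by over 1.5 times without background correction and 76 with the authors' processed values. None of the 163 lost its call against the mean of the GD20 groups under either. Their calls against each GD20 group alone were not followed gene by gene.

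**Figure D1:**
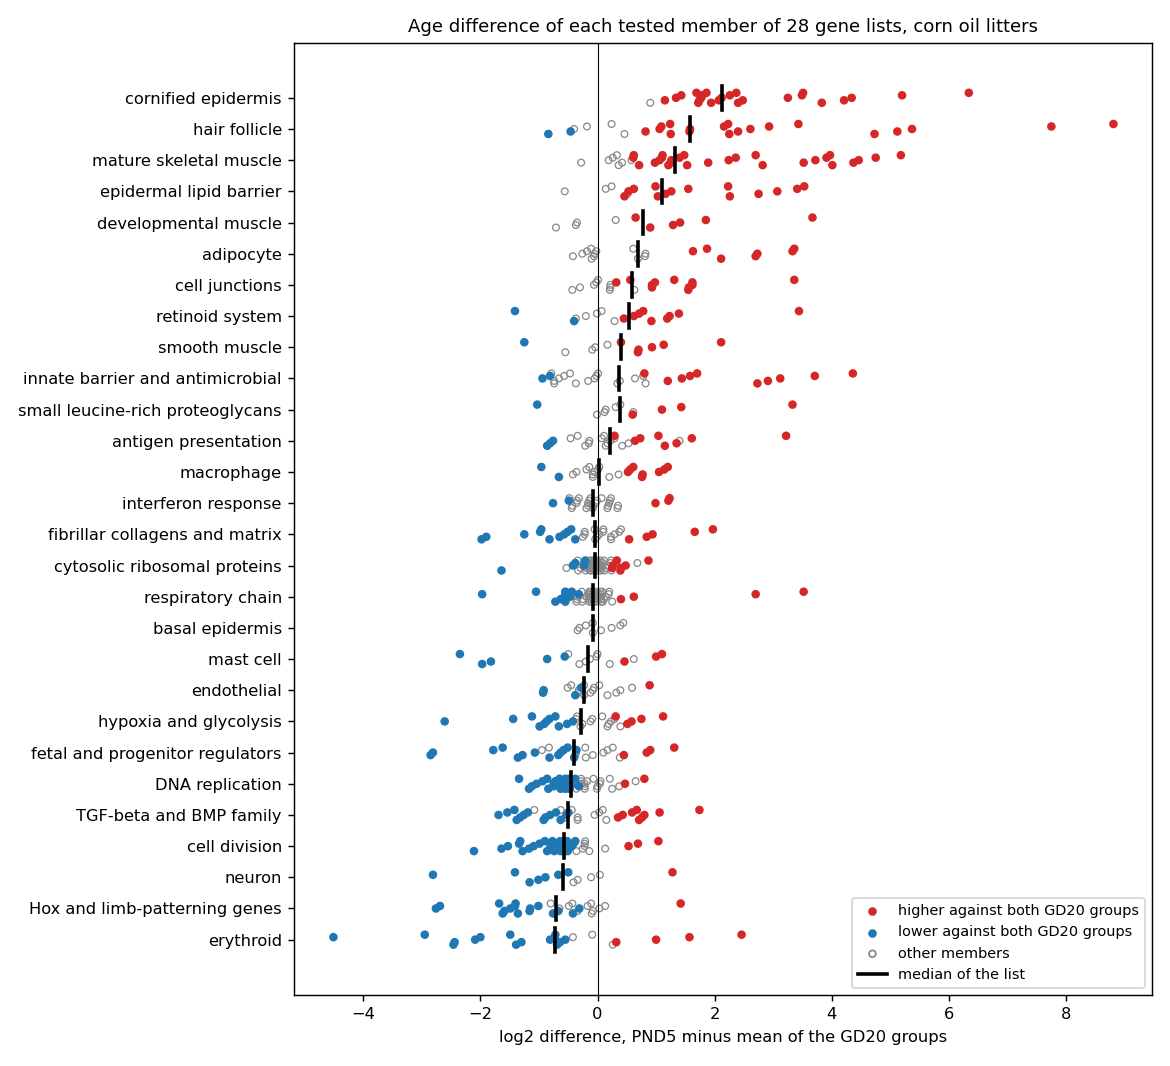
Each point is the log2 difference (horizontal axis, PND5 minus the mean of the GD20 groups) of 1 tested gene of the list named at the left. Filled points are genes that rose or fell against both GD20 groups, open points the others, and black bars the list medians, among them 2.12 for cornified epidermis and -0.72 for erythroid genes.

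Hair follicle genes showed the largest rises of the whole array. Of 25 tested members, 19 rose and 2 fell, and their median log2 difference was 1.58 against -0.09 over all tested probes. However, 9 of the 25 were detected on none of the 12 GD20 arrays. These members entered the test through other arrays and could hardly have fallen, so the count and the median partly follow from the detection filter. Keratin 25 (Krt25), a keratin of the inner root sheath that moulds the growing hair, was not detected on any of the 12 GD20 arrays, where its level was 4.74 to 5.00 (median 4.82) in the DBP100 study and 4.72 to 4.87 (median 4.84) in the DBP500 study. At PND5 it lay between 12.91 and 14.13 with a median of 13.72. The groups did not overlap, and the difference was 8.81 ± 0.132 (SE) on the log2 scale (adjusted p = 1.015e-39), which is at least 271-fold when each GD20 array is set to its lowest detected signal. Bounds of this kind, written "at least" below, are used where every array of 1 age, or of 1 GD20 group, was below detection. In the second case the bound is taken against all 12 GD20 arrays and stands beside the fitted difference, whose size then rests on signal near background. The adjusted p of the changes given with a bound was 0.000107 or lower.

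Krt27, also of the inner root sheath, was detected on 1 of 12 GD20 arrays and rose from medians of 5.03 and 4.93 to 12.96, a difference of 7.75 ± 0.163 (at least 154-fold). Krt28, also detected on 1 of 12, rose by 4.73 ± 0.122 (at least 20.9-fold), from medians of 4.99 and 5.50 to 9.97. The upstream sequences of these 3 genes are shown because they are the largest rises of 1 keratin cluster and each has the letters TATAAA, the classical TATA box (in capitals), close to its start. They are RefSeq promoter windows of the rat build GRCr8, 250 bases before to 50 bases after the annotated start, printed 5′ to 3′ on the gene's strand, which is the minus strand at chr10:84771148-84771447 (Krt25), chr10:84800082-84800381 (Krt27) and chr10:84824808-84825107 (Krt28).
Krt25: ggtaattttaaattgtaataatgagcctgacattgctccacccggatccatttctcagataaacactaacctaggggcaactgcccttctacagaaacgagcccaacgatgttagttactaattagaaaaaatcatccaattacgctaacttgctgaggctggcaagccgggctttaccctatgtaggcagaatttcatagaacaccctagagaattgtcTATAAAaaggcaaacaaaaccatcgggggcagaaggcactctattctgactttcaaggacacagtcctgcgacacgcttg
Krt27: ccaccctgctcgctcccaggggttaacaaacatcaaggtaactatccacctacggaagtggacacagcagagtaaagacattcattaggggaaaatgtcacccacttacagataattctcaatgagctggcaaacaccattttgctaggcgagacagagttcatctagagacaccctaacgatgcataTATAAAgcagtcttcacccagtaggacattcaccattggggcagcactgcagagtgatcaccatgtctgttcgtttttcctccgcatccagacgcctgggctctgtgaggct
Krt28: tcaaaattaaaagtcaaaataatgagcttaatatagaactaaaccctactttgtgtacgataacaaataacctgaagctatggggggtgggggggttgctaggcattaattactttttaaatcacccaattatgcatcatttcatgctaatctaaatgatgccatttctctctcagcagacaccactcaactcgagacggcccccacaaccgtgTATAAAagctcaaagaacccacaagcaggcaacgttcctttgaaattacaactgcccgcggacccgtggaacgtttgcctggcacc
The motif starts 30 bases before the annotated start in Krt25, 62 in Krt27 and 36 in Krt28. On either strand TATAAA was found in 9 of the 13 promoters in the table that belong to the 19 risen hair follicle genes (69.2%), in 7 of 16 of the risen cornified genes (43.8%), and in 643 of 7736 promoters of all tested genes (8.31%). It was also in 7 of 22 promoters of the risen muscle genes (31.8%) and 2 of 10 of the fallen erythroid genes (20%). The fallen cell division and DNA replication genes had 0 of 26 and 0 of 19. This motif was chosen after the values had been seen, several of these keratins are tandem copies, and the shares are descriptions with no test.

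S100a3, a calcium-binding protein of the hair cuticle, rose by 5.37 ± 0.194 and Padi3, the deiminase that modifies trichohyalin in the root sheath, by 5.12 ± 0.159. Their GD20 medians were 5.20 and 6.10 for S100a3 and 5.13 and 5.43 for Padi3, and their PND5 medians were 11.15 and 10.48. The hair cortex keratin Krt33a, undetected at GD20, rose at least 6.92-fold to a PND5 median of 8.62. Probes of the hair shaft keratins may not separate these near-identical paralogs. Not all follicle genes rose: Lef1, a Wnt effector of early hair buds, fell by 0.84 on the log2 scale and Krt36, a hair keratin, fell by 0.46. Trps1, a transcription factor of follicle mesenchyme, did not pass (0.24 ± 0.288), with medians of 9.02 and 7.44 in the GD20 groups and 8.41 at PND5. In pooled tissue, more cells of a type and more RNA per cell cannot be told apart, here or in any group below.

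The cornified epidermis rose almost as a whole: 24 of 25 tested members rose, none fell, 22 had no overlap between ages, and the median log2 difference was 2.12. Of the 25, 3 were detected on no GD20 array. Hal, histidine ammonia-lyase, which makes the urocanic acid of the stratum corneum, was detected on 1 of 12 GD20 arrays with medians of 5.11 and 4.93. At PND5 it lay between 11.14 and 11.60 (median 11.46), a difference of 6.34 ± 0.10 (adjusted p = 5.09e-39, at least 57.7-fold). Klk7, a kallikrein protease that cuts the links between corneocytes, went from medians of 6.93 and 6.06 to 11.77, a difference of 5.20 ± 0.196.

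Casp14, the caspase of terminal keratinocyte differentiation, was undetected at GD20 and rose at least 12.9-fold to a median of 9.19. Sbsn (suprabasin), already bright at GD20 with medians of 10.21 and 8.39, reached 13.47. Krt10, the main keratin of suprabasal cells, rose by 2.26 ± 0.251, from medians of 12.90 and 11.73 to 14.55, and Rptn (repetin) by 3.83 ± 0.292. Trex2, a keratinocyte exonuclease, was outside the list and rose at least 18.6-fold from undetected to 9.80. Csta (0.90, a cystatin) was the tested member that did not hold.

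The size of this rise depended on which GD20 group was the reference. The median over the list was 1.78 against the DBP100 study and 2.63 against the DBP500 study, and the list lay 0.68 lower in the second than in the first. The mean level of the members was 8.64 to 9.18 in the DBP100 study litters, 8.08 to 8.36 in the DBP500 study litters and 11.01 to 11.30 at PND5, so the PND5 litters stood clear of both. Whether that gap within GD20 reflects tissue, timing or array set was not tested.

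Genes of barrier lipid synthesis rose with it: 14 of 18 tested members rose, none fell, and the median was 1.09. Degs2, which makes the phytoceramides of the barrier, rose by 3.41 ± 0.161 to a median of 11.13. Sptlc3, a subunit of the enzyme that starts ceramide synthesis, rose by 3.07 ± 0.145, Lipk, an epidermal lipase, by 3.53 ± 0.174, and Sult2b1, which sulfates cholesterol, by 2.75 ± 0.154. The lipoxygenase Alox12b and the lipase co-activator Abhd5, whose loss causes ichthyosis in people, rose by 2.26 ± 0.133 and 2.23 ± 0.118.

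Among cell junction genes 11 of 20 tested members rose and none fell (median 0.60). When arrays were only shifted to the same median, 7 rose and 3 fell. Cldn1, the claudin of epidermal tight junctions, rose by 3.36 ± 0.138, from medians of 7.54 and 7.0 to 10.66. The desmosomal genes Pkp1 and Dsc3 rose by 1.56 ± 0.124 and 1.62 ± 0.239, and the connexin Gjb2 by 1.31 ± 0.111. Gja1, the connexin most abundant in skin, did not pass (0.21 ± 0.0998, adjusted p = 0.0662), and the median-shift scaling turned it to -0.84.

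Basal keratinocyte genes stood apart from the upper layers. Of 9 tested members none held in either direction, and the median was -0.08. Against the mean of the GD20 groups 3 of the 9 passed as higher and 2 as lower. The GD20 groups differed from each other in 4 of the 9, beside 22.0% of all tested probes. Tp63, the master regulator of stratified epithelium, had medians of 12.36, 12.45 and 12.38 in the DBP100 study, the DBP500 study and PND5, and Itgb4, the integrin of hemidesmosomes, had 9.74, 9.74 and 9.54 in the same order. Krt14 differed by -0.20 ± 0.0829 in the main comparison (adjusted p = 0.0372) and did not hold. After the median shift 3 of the 9 held as lower and none as higher, and Tp63 and Itgb4 were both at -0.56.

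Keratins of simple and mucosal epithelia split. Krt7 and Krt8, keratins of simple epithelia and of fetal surface layers, fell by 3.10 and 2.25 on the log2 scale. Krt7 lay between 8.23 and 9.81 at GD20 and between 5.38 and 6.55 at PND5, with no overlap. Krt17, of skin appendages, fell by 0.80. Krt23 rose by 3.58 ± 0.151 (at least 8.89-fold) and Krt16, of activated keratinocytes, by 1.10 ± 0.233 (at least 1.47-fold), while the mucosal keratins Krt4 (0.19 ± 0.177) and Krt13 (0.24 ± 0.254) did not pass.

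**Figure D2:**
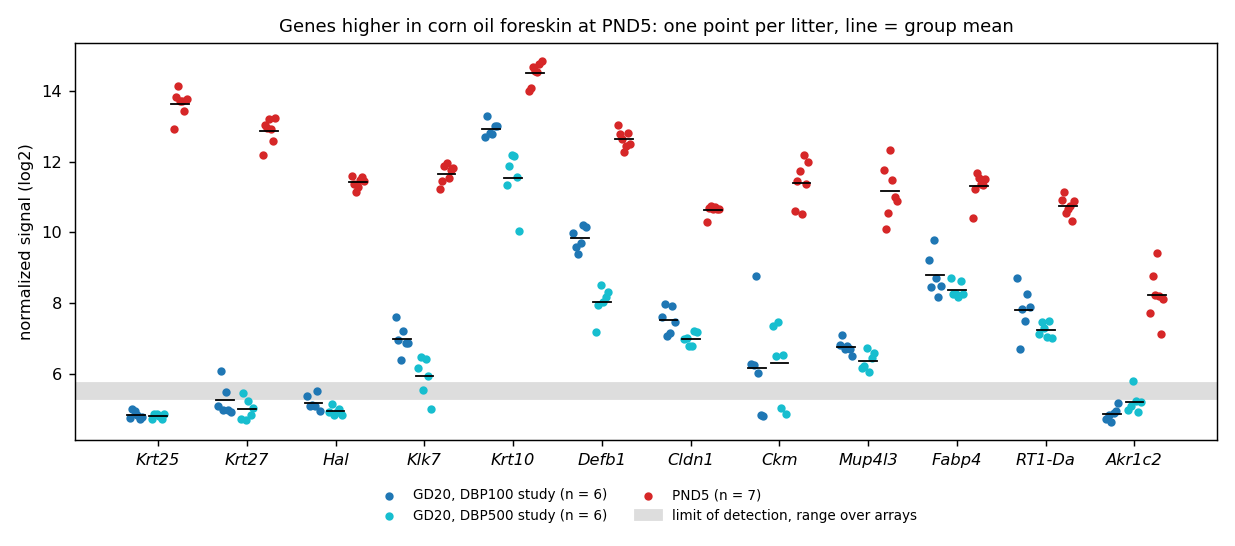
Normalized signal (log2, vertical axis) of 12 risen genes in each corn oil litter, with GD20 litters of the DBP100 and DBP500 studies in blues and PND5 litters in red, bars at the group means and the range of the detection limit in grey. Krt25 lies below the limit in all 12 GD20 litters and between 12.91 and 14.13 in the 7 PND5 litters.

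Epithelial cytokines and antimicrobial genes rose at the same time. Of 28 tested members of the innate barrier list 10 rose and 2 fell (median 0.36), and after the median shift 9 rose and 4 fell. Il36g and Il1a, cytokines made by keratinocytes, rose by 4.36 ± 0.245 and, from undetected at GD20, at least 5.68-fold. The related Il36b and Il1f10, outside the list and among the largest rises of the array, increased by 5.00 ± 0.197 and 4.93 ± 0.158. Il36g lay between 5.25 and 8.29 at GD20 and between 10.15 and 10.94 at PND5, without overlap. Defb1, a defensin, rose by 3.71 ± 0.153 to a median of 12.65, Slpi, a protease inhibitor of mucosa and skin, by 2.91 ± 0.245. Wfdc21, a whey acidic protein outside the list, rose by 4.52 ± 0.241.

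Skeletal muscle genes formed another large block. Of 34 tested genes of mature muscle 27 rose and none fell (median 1.33), and 3 of the 34 were detected on no GD20 array. Ckm, muscle creatine kinase, lay at 4.81, 6.13 and 8.76 (lowest, median and highest) in the DBP100 study, at 4.87, 6.53 and 7.46 in the DBP500 study and at 10.52, 11.45 and 12.20 at PND5, a difference of 5.18 ± 0.392. Acta1, the actin of skeletal muscle, went from medians of 8.78 and 8.70 to 13.07 (4.75 ± 0.680). The myosin light chains Myl11 and Myl1 rose by 4.46 ± 0.582 and 4.01 ± 0.307, troponin C (Tnnc2) by 4.37 ± 0.376 and slow myosin Myh7 by 3.97 ± 0.351.

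The GD20 litters differed widely in muscle signal. Acta1 ranged from 4.55 to 11.39 within the DBP100 study alone, and the mean level of the 34 genes ranged from 5.60 to 7.08 and from 5.86 to 6.80 in the GD20 studies and from 7.61 to 8.57 at PND5. Replicate 3 of the DBP100 study had the highest mean of the GD20 litters, and without it 27 members still rose, with a median of 1.41 and a Ckm difference of 5.44. How much muscle each dissected foreskin held was not measured, and its part in this rise was not tested.

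Embryonic muscle genes rose too, 6 of 10 tested members with none falling (median 0.77). Myh3, the embryonic myosin, rose by 3.67 ± 0.554 and the myogenic factors Myog and Myod1 by 1.85 ± 0.283 and 0.90 ± 0.195 (at least 1.18-fold for the latter). Of the subunits of the fetal acetylcholine receptor Chrnd rose by 0.65, and Chrna1 (0.31 ± 0.140, undetected at GD20) and Chrng (-0.35 ± 0.158) did not pass. Of 11 smooth muscle genes 6 rose and 1 fell: the enteric actin Actg2 rose by 2.11 ± 0.166 and Cald1 (caldesmon) by 1.13 ± 0.173, while Myocd, the co-activator that switches smooth muscle genes on, fell by 1.25. Tagln (transgelin) rose by 0.69 ± 0.120, and the median-shift scaling left it at 0.18 without a call (adjusted p = 0.324).

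Genes of fat cells and lipid synthesis rose in part. Of 19 tested adipocyte genes 7 rose and none fell (median 0.69). Cebpa, a transcription factor of fat cells and keratinocytes, rose by 3.36 ± 0.172, Fabp4, the fatty acid carrier of adipocytes, by 2.70 ± 0.183, Cfd (adipsin) by 2.73 ± 0.202 and lipoprotein lipase (Lpl) by 1.87 ± 0.176. Car3, which is also abundant in muscle, rose by 3.33 ± 0.230. Fabp4 lay between 8.17 and 9.79 at GD20 and between 10.42 and 11.68 at PND5.

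Among 14 genes of fatty acid synthesis 7 rose and 2 fell: Me1 (malic enzyme) by 3.15 ± 0.110, Elovl5 (an elongase) by 2.99 ± 0.184 and Acaca (acetyl-CoA carboxylase) by 1.62 ± 0.135 (at least 2.34-fold), whereas Thrsp, a lipogenic regulator, fell by 1.43. Of 12 sebaceous gland genes 5 rose and 2 fell (median 0.44). The lipid enzymes Dgat2, Scd and Elovl3 rose by 2.11 ± 0.123, 1.79 ± 0.163 and 1.29 ± 0.217, and Gal (galanin) and Plin2, a coat protein of lipid droplets, fell by 1.06 and 0.55. Mup4l3 and Mup4l4, members of the major urinary protein family of pheromone-binding lipocalins, rose by 4.59 ± 0.263 and 4.50 ± 0.223. A second probe of Mup4l4 rose by 3.95. Mup genes are near-identical copies that these probes may not separate.

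Genes of the dermal matrix moved in both directions, with 5 of 30 tested collagen and matrix genes risen, 11 fallen and a median of -0.05. This family depends on scaling: shifted to the same median, 2 rose, 19 fell and the median was -0.87. The falls included Loxl2, a lysyl oxidase, by 1.98, Plod2, a lysyl hydroxylase, by 1.25 and the collagen chaperone Serpinh1 by 0.98. Col8a1 fell by 1.90, from medians of 10.40 and 11.39 to 9.01. Thbs2 (thrombospondin 2) and Col5a3 rose by 1.97 ± 0.182 and 1.66 ± 0.186. Col1a1 differed by 0.23 ± 0.0998, did not hold, and was at -0.92 after the median shift.

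In the elastic fibre list 4 of 15 rose and 3 fell, not far from the background shares (median 0.12, and -0.34 after the median shift). Fbn2, the fibrillin of fetal microfibrils, fell by 1.70 and Ltbp1, which tethers latent TGF-beta to them, by 1.38, while Efemp1 and Mfap5, later microfibril components, rose by 2.03 ± 0.174 and 1.44 ± 0.149. The collagen-binding proteins Aspn (asporin) and Dpt (dermatopontin) rose by 3.33 ± 0.162 and 1.43 ± 0.113, and Fmod (fibromodulin) fell by 1.03. Of 20 proteases and inhibitors 5 rose and 2 fell (median 0.02), against 4 and 5 after the median shift (median -0.33), among them Timp2 (1.94 ± 0.295) and the aggrecanase Adamts5 (1.77 ± 0.135) up and the stromal protease Mmp11 down by 1.38. Timp2 was at 5.07 in replicate 6 of the DBP500 study and at 8.10 or more in the other GD20 litters.

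Red cell genes gave the largest falls. Of 22 tested members 15 fell and 4 rose (median -0.72), and 4 of the 22 were detected on no PND5 array. Ahsp, the chaperone of free alpha globin, lay between 10.05 and 12.50 at GD20 and between 5.89 and 7.76 at PND5, and fell by 4.51 on the log2 scale (SE 0.374, adjusted p = 9.155e-14), the largest fall named by the rule. Hbb-b1, a beta globin, fell by 2.44, and Hba-a3, an alpha globin outside the list, by 3.67. The latter fell by 2.74 with PND5 replicates 5 to 7 alone and by 4.36 with replicates 1 to 4 alone. The embryonic globins Hbe1 and Hbg1 were not detected at PND5, at least 5.09-fold and 2.83-fold lower. Probes of the globin family may not separate its copies. Alas2, the first enzyme of red cell heme synthesis, fell by 2.46.

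The fall was not shared by the whole list. Tfrc, the transferrin receptor, which dividing cells of any type use, rose by 2.46 ± 0.163 (at least 4.73-fold), and Ank1, which muscle also expresses, rose by 1.57. The mean level of the 22 genes ranged from 8.34 to 9.25 and from 8.60 to 9.53 in the GD20 studies and from 7.82 to 8.21 at PND5. The amount of blood in each sample was not measured, and its part in these falls was not tested.

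Mast cell genes went both ways, with 3 of 16 tested members risen and 5 fallen (median -0.17), not far from the background shares. Of the 16, 3 were detected on no PND5 array and could hardly have risen. Another 1 was detected on no GD20 array and could hardly have fallen. The granule proteases were mixed. Mcpt10, not detected at PND5, fell at least 3.54-fold, the tryptases Tpsab1 and Tpsb2 by 1.97 and 1.82 and Mcpt1 by 0.86, whereas Cma1 (0.62), Mcpt4 (-0.13) and Mcpt9 (-0.20) did not pass. Cpa3, mast cell carboxypeptidase, rose by 1.10 ± 0.145 and the receptor Kit, undetected at GD20, at least 1.29-fold. Of 21 macrophage genes 8 rose and 2 fell (median 0.03): Mrc1 (mannose receptor) and Cd14 rose by 1.05 ± 0.126 and 1.20 ± 0.182, and the scavenger receptor Cd163 fell by 0.96. Only 4 macrophage genes rose after the median shift.

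Of 25 tested antigen presentation genes 8 rose and 3 fell (median 0.22), and after the median shift 6 rose and 5 fell. RT1-Da, a class II chain, lay between 6.70 and 8.70 at GD20 and between 10.33 and 11.15 at PND5 (3.22 ± 0.202), and the invariant chain Cd74 and RT1-Ba rose by 1.61 ± 0.164 (at least 2.06-fold) and 1.35 ± 0.240 (at least 1.71-fold). These 3 were the largest rises of the list, while the class II chains RT1-DOa (0.14) and RT1-DMa (-0.15) did not pass. The immunoproteasome subunit Psmb9 fell by 0.86 on the log2 scale. With PND5 replicates 5 to 7 alone, 5 members rose and Psmb9 did not pass (adjusted p = 0.0538). Interferon response genes (3 of 28 risen, 2 fallen, median -0.08) lay below the background shares, and of 13 T, NK and B cell genes none held.

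Nerve genes fell: 7 of 12 tested neuronal members fell and 1 rose (median -0.59). However, 3 of the 12 were detected on no PND5 array and could hardly have risen, so the count and the median partly follow from the detection filter. Prph (peripherin), a filament of peripheral axons, fell by 2.81 from a GD20 range of 8.46 to 9.01 to between 5.30 and 6.21 at PND5. Gap43, the axon growth protein, fell by 1.41, and Syt1 and Tac1, the substance P precursor, were not detected at PND5 and were at least 1.57-fold and 1.39-fold lower. Nefh, the heavy neurofilament of mature axons, rose by 1.28 ± 0.190. Of 17 Schwann cell genes 6 rose and 2 fell (median -0.00), with Sox10 down by 0.85 and the myelin protein Mal up by 1.13 ± 0.259. Endothelial genes stayed near or below the background shares, with 1 of 19 risen and 4 fallen (median -0.23).

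**Figure D3:**
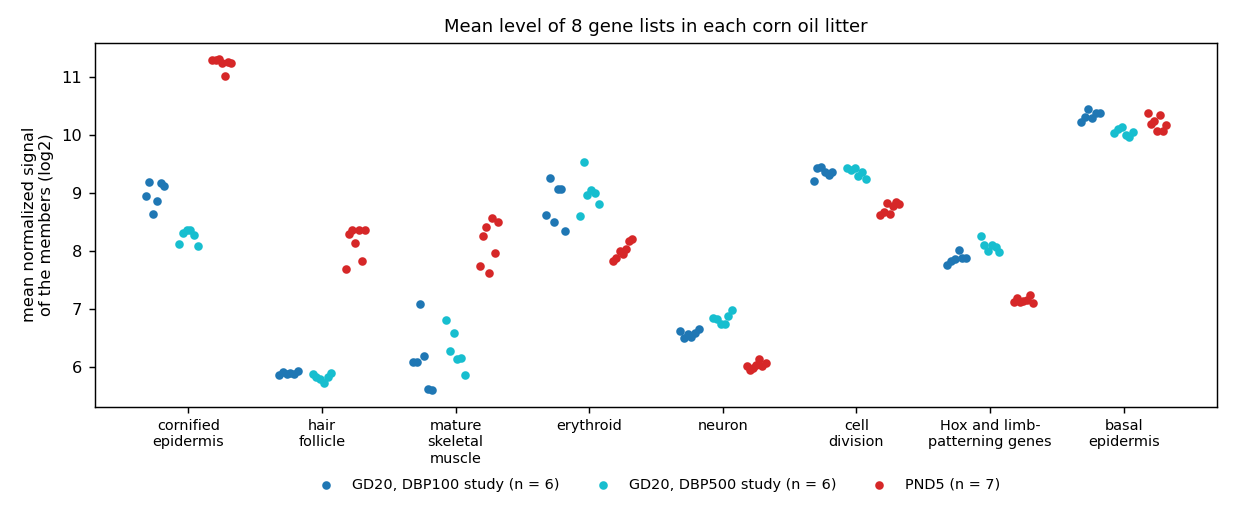
Mean normalized signal (log2, vertical axis) over the tested members of 8 gene lists, with 1 point for each corn oil litter. The cornified list lies at 8.08 to 9.18 in GD20 litters and 11.01 to 11.30 in PND5 litters, the muscle list is spread from 5.60 to 7.08 within GD20, and the basal list overlaps between ages.

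Genes of cell division fell as a group. Of 45 tested members 33 fell and 3 rose, and the median was -0.58. After the median shift 38 fell and 1 rose (median -0.95). Plk1, the kinase that drives mitosis, lay between 8.94 and 9.71 at GD20 and between 6.76 and 7.42 at PND5, and fell by 2.11 on the log2 scale (SE 0.116, adjusted p = 2.09e-19). Ube2c, which targets cyclins for destruction, fell by 1.64, the mitotic kinesins Kif20a and Kif15 by 1.53 and 1.28, the phosphatase Cdc25b by 1.32 and the kinetochore protein Cenpt by 1.34. Ccna2 (cyclin A2) did not pass, at 0.13 ± 0.0920, although the median shift gave -0.39 (adjusted p = 0.0279).

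Mitotic genes are known to carry a CHR element, TTTGAA, and CCAAT boxes, through which repressor and activator complexes act. The windows of the 4 largest falls of the list that the promoter table holds are shown to let these motifs be seen, with TTTGAA and CCAAT, or their reverse complements TTCAAA and ATTGG, in capitals. They lie on the plus strand of GRCr8 at chr1:186147408-186147707 (Plk1), chr18:26504172-26504471 (Kif20a), chr3:138859923-138860222 (Cdc25b) and chr8:131479154-131479453 (Kif15).
Plk1: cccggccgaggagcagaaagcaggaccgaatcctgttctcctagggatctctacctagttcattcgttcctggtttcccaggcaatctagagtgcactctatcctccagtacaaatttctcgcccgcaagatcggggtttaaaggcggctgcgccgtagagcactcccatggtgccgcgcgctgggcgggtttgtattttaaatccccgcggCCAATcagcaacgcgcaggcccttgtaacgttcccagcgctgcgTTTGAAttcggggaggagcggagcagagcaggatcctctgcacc
Kif20a: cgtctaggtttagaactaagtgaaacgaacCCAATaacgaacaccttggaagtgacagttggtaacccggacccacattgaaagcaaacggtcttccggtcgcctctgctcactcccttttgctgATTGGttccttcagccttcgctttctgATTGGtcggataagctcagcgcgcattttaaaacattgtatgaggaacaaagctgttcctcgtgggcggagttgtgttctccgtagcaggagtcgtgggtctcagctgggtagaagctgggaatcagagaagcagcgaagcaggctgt
Cdc25b: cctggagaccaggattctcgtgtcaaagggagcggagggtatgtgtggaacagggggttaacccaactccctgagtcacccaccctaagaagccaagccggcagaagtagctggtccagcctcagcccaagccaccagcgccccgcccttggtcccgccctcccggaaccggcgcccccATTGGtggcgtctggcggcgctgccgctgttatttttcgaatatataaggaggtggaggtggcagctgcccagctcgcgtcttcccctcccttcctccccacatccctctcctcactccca
Kif15: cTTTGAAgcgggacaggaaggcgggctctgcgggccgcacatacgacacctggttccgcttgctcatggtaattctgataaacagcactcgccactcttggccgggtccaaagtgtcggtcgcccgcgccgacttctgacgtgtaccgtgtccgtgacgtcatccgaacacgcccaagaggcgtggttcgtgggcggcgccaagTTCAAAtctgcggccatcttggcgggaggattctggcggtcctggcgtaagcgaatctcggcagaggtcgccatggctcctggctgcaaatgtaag
In Plk1 a CCAAT begins 38 bases before the annotated start and TTTGAA at base 7 after it. The Kif20a window holds 3 CCAAT boxes and no TTTGAA, that of Cdc25b 1 CCAAT box, and that of Kif15 both strands' TTTGAA and no CCAAT. The capitals of the motifs do not overlap. Of the 33 fallen division genes 26 had a window, and TTTGAA was in 15 of them (57.7%) and CCAAT in 17 (65.4%). Over the promoters of all tested genes the shares were 12.1% and 37.7%. In the fallen DNA replication genes TTTGAA was in 1 of 19 windows (5.26%) and CCAAT in 10 (52.6%). CCAAT was as common in lists not of division: 60% of windows of fallen erythroid genes and 53.8% of risen hair follicle genes. It was in 50% of windows of risen cornified genes and 50% of risen muscle genes. TTTGAA was in 20%, 30.8%, 6.25% and 18.2% of these windows in the same order. These are descriptions of letters in a window, not of bound sites.

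Of 46 tested DNA replication genes 25 fell and 2 rose (median -0.45, and -0.78 after the median shift). The histone chaperone subunit Chaf1b fell by 1.34, the clamp loader Rfc2 by 1.17 and the S-phase transcription factor E2f1 by 1.12, with no overlap between ages for each. Mcm7, of the replicative helicase, did not pass (-0.07 ± 0.0809), although the median shift gave -0.61 (adjusted p = 0.000207). Among 15 inhibitors of the cell cycle 7 rose and 1 fell (median 0.37, and -0.03 with 3 risen after the median shift): the antiproliferative Tob1 rose by 1.66 ± 0.121, and Cdkn1c, an imprinted inhibitor, fell by 1.03.

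Fetal regulators fell, 14 of 29 tested members against 4 that rose (median -0.40), or 16 against 2 after the median shift (median -0.88). Sox11, a transcription factor of immature neurons and mesenchyme, lay between 8.40 and 9.58 at GD20 and between 5.63 and 6.41 at PND5, and fell by 2.81. Sox4, its relative, fell by 1.78. The heparin-binding growth factors Ptn and Mdk fell by 2.85 and 1.62, with Ptn at medians of 10.19 and 9.58 before birth and 7.23 after. Hmga1, a chromatin protein of growing cells, rose by 1.31 ± 0.212.

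Imprinted and insulin-like growth factor genes were mixed. Of 16 imprinted genes 5 rose and 5 fell (median -0.25), against 4 and 9 after the median shift (median -0.82), and of 16 genes of the insulin-like growth factor system 3 rose and 2 fell (median -0.08), against 3 and 6 (median -0.46). Igf2, the fetal growth factor, had medians of 14.88, 14.90 and 14.90 and did not pass (-0.06 ± 0.0750), but was at -1.47 after the median shift (adjusted p = 1.25e-12). Dlk1 rose by 1.09 ± 0.168, and the median shift left it at 0.47 (adjusted p = 0.0548). Nnat fell by 1.08, although a dimmer probe of the same gene gave 0.61 without holding. Pappa, the protease that frees growth factor from its binding proteins, fell by 2.0 and Igfbp6 rose by 1.42 ± 0.143.

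Patterning transcription factors fell in the largest proportion of the signalling and regulator lists described here: 16 of 28 tested Hox and limb genes fell, 1 rose and the median was -0.72 (-0.88 after the median shift). Tbx3, a T-box factor of limb and genital mesenchyme, had GD20 medians of 8.35 and 8.16 and a PND5 median of 5.30, near the detection limit, and fell by 2.76. Shox2 fell by 2.69, Meis2 by 1.68, Hoxd3 and Hoxd10 by 1.62 and 1.49, and Pitx1, a hindlimb factor, by 1.59. Hoxd10 was detected in every litter of both ages, between 10.01 and 10.56 before birth and 8.18 and 9.08 after. The single rise was Tbx18 (1.42).

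**Figure D4:**
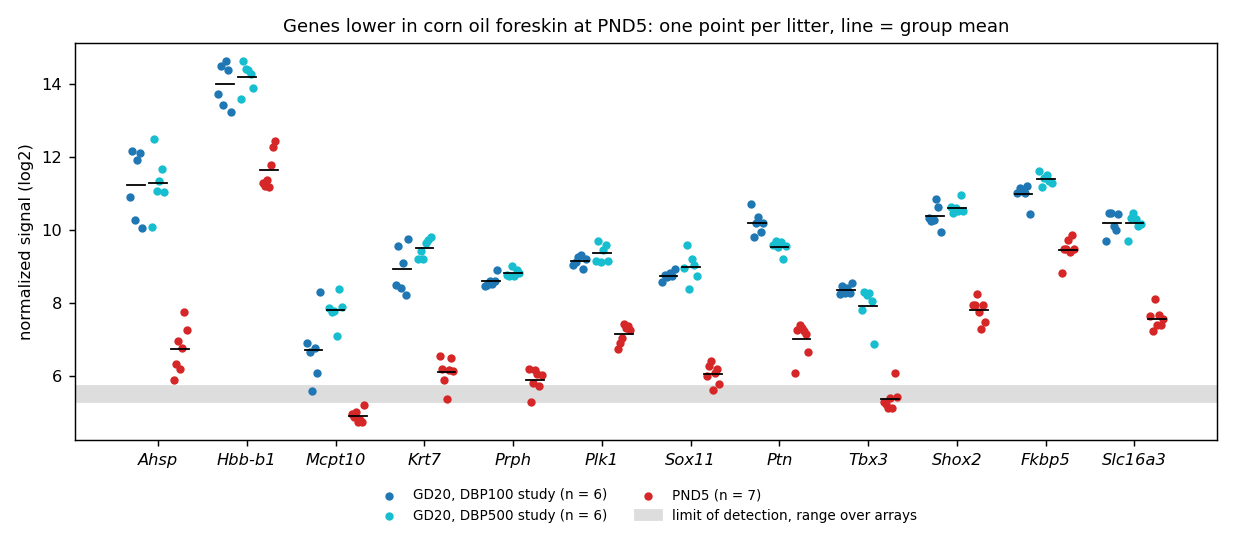
Normalized signal (log2, vertical axis) of 12 fallen genes in each corn oil litter, coloured by group as labelled, with bars at the group means and the range of the detection limit in grey. Plk1 lies between 8.94 and 9.71 in GD20 litters and between 6.76 and 7.42 in PND5 litters, and Mcpt10 falls below the limit in all 7 PND5 litters.

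Of 33 Wnt pathway genes 11 fell and 7 rose (median -0.09), with 11 and 3 after the median shift: the ligands Wnt6, Wnt10a and Wnt4 fell by 1.81, 1.29 and 1.24, whereas the ligand Wnt7b and the co-receptor Lrp6 rose by 1.33 ± 0.168 (at least 1.63-fold) and 1.49 ± 0.278. In the TGF-beta and BMP family 14 of 33 fell and 9 rose (median -0.50), and after the median shift 18 fell and 3 rose. The ligand Bmp4 fell by 1.32 and its target Id3 by 1.69, and the co-receptor Tgfbr3 rose by 1.74 ± 0.146 (at least 2.97-fold). Of 31 genes of the FGF, PDGF and EGF families 10 rose and 4 fell (median 0.32). Tgfa, a ligand of the EGF receptor made by keratinocytes, rose by 2.45 ± 0.112, from medians of 7.55 and 7.58 to 10.07. Of 15 Notch pathway genes 4 rose and 2 fell (median 0.21, and -0.05 after the median shift), and of 7 hedgehog pathway genes 1 rose and 1 fell.

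Of 27 tested steroid genes 8 rose and 3 fell (median 0.01), against 8 and 6 after the median shift (median -0.22). Akr1c2, an aldo-keto reductase of steroids, was detected on 1 GD20 array and rose by 3.19 ± 0.221 (at least 6.29-fold) to a median of 8.2. Hsd17b2, which oxidises testosterone and estradiol, rose by 2.53 ± 0.136 and Hsd11b1, which regenerates active glucocorticoid, by 2.34 ± 0.188. Fkbp5, a chaperone that glucocorticoids and androgens induce, fell by 1.73 from a GD20 range of 10.44 to 11.62 to between 8.82 and 9.87, and Zbtb16, another such gene, was not detected at PND5 and was at least 1.31-fold lower. Of the 22 listed glucocorticoid-induced genes 6 fell and 4 rose (median -0.13), against 10 and 2 after the median shift (median -0.71), the rises led by Ppl (periplakin, 3.75 ± 0.168), which is also a protein of the cornified envelope.

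Clock genes included 6 risen and 1 fallen of 14 (median 0.29): Bhlhe40, Nr1d1 and Bmal1 rose by 1.92 ± 0.158, 1.47 ± 0.231 (at least 2.06-fold for Nr1d1) and 0.73 ± 0.143. The hour of collection is not given in the sources used here. Among 16 retinoid genes 9 rose and 2 fell (median 0.54, and -0.01 after the median shift), with the retinol carrier Rbp2 up by 3.44 ± 0.174 and Aldh1a2, which makes retinoic acid in embryonic mesenchyme, down by 1.41. In the hypoxia and glycolysis list 11 of 28 fell and 5 rose (median -0.28), or 13 and 2 after the median shift (median -0.45): Slc16a3, the lactate exporter, fell by 2.61 and Gapdh by 0.91, and Hif1a rose by 1.12 ± 0.146.

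Genes of protein synthesis and respiration had small median differences whose size, and the counts of falls, depended on the scaling. Of 60 cytosolic ribosomal protein genes 7 rose and 5 fell (median -0.04), while after the median shift 1 rose and 49 fell (median -1.09). Of 57 respiratory chain genes 4 rose and 12 fell (median -0.08), against 2 and 42 after the shift (median -0.70). The rises of the respiratory list were led by Cox6a2 (3.52) and Cox8b (2.70), subunits specific to muscle that the muscle list also holds. Among the ribosomal genes Rps16 fell by 1.64, but by 2.50 against the DBP100 study and 0.78 against the DBP500 study.

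A few of the largest falls belong to none of these groups. Serpinb10, a serpin, fell by 3.33, from medians of 11.48 and 11.59 to 8.26. Otor (otoraplin), a secreted protein known from the inner ear and cartilage, was not detected at PND5, at least 6.29-fold lower. Cadps, which primes secretory vesicles, fell by 3.02, and Clcc1, a channel of the endoplasmic reticulum, by 2.83. Cep295, a centriole protein, fell by 2.79, although a second probe of it fell by 0.73. Birc6, a giant ubiquitin ligase, fell by 2.68 with the widest error of these falls (SE 0.478).

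How far did litters of 1 group differ? The median SD per tested probe was 0.223 and 0.210 in the GD20 groups and 0.261 at PND5. Mature muscle genes had median SDs of 0.475, 0.378 and 0.481 in the same order, and hair follicle genes had 0.184, 0.261 and 0.396, the last where they were expressed. Cell division genes had 0.172, 0.155 and 0.241. Of the 163 named genes that held, 139 had no overlap between the 12 GD20 and the 7 PND5 litters, and since the rule for naming takes the largest changes, this share describes those genes alone.

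Were the changes also seen in litters that the comparison did not use? The DBP litters of both ages, on other arrays, gave their own age differences. These arrays belong to the same array sets as those of the corn oil litters and shared their normalization, filter and estimate of spread. Age and array set are thus confounded here in the same way, and the agreement cannot separate them. In the DBP100 litters 7997 probes passed (58.9%) and in the DBP500 litters 7521 (55.4%). Of the 5831 probes that held in corn oil, 5332 (91.4%) passed with the same sign in the DBP100 litters, which is 66.7% of the list called there, and 5045 (86.5%) did so in the DBP500 litters, 67.1% of that list. Only 5 passed with the opposite sign at either dose. Of the 163 named genes that held, all had the same sign at both doses, and 160 passed at each.

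The exceptions were Cd163, Dlk1 and Zbtb16 at 100 mg/kg/day and Elovl3, Psmb9 and Mal at 500 mg/kg/day. Krt25 rose by 8.80 and 8.39 in the DBP100 and DBP500 litters against 8.81 in corn oil, and Ahsp fell by 3.88 and 3.89 against 4.51. The difference between DBP100 and corn oil age differences passed for no probe by limma (0.00%, with 1156 at an unadjusted p under 0.05). For DBP500 it passed for 56 probes (0.412%, with 1744 unadjusted), and Scd (a desaturase) was the named gene among them, with a rise of 0.69 against 1.84 in corn oil litters when their GD20 reference was the DBP500 study alone, as this test takes it (difference -1.14, adjusted p = 0.0469).

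**Figure D5:**
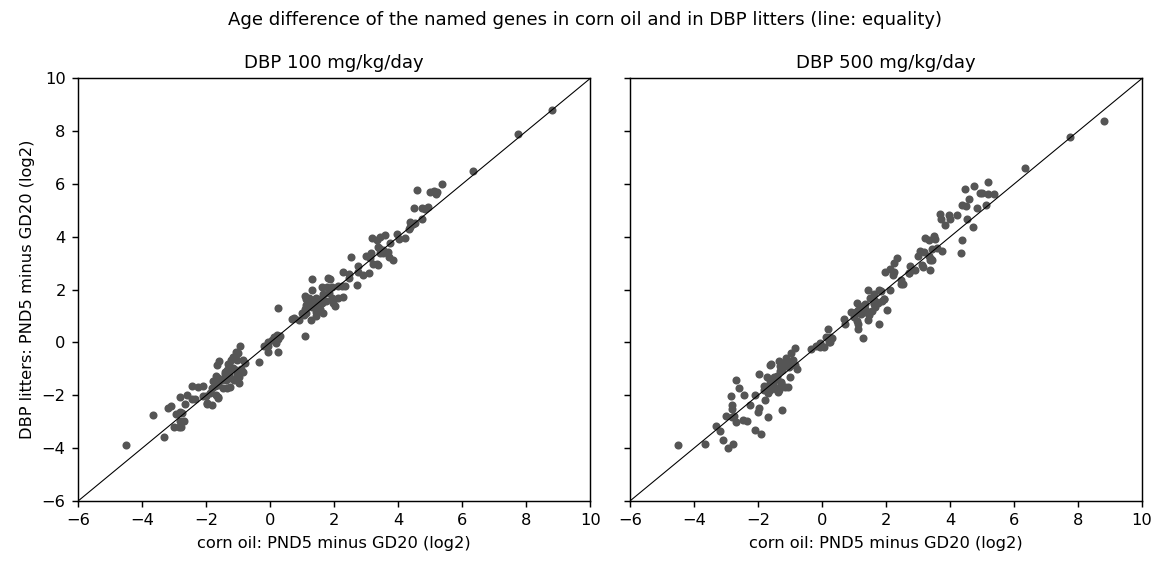
Age difference (PND5 minus GD20, log2) of each of the 176 named genes in corn oil litters (horizontal axis) and in DBP litters (vertical axis) at 100 mg/kg/day (left) and 500 mg/kg/day (right), with a line at equality. Krt25 is the point at the upper right, at 8.81 in corn oil and 8.80 and 8.39 in DBP litters, and Ahsp the lowest in corn oil at -4.51.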

How the data were processed

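Total RNA was measured on Illumina RatRef-12 v1 beadchips. The authors deposited non-normalized probe intensity values with a detection p-value per probe and array, per the file headers, and a table of processed intensity values that are linear and quantile-normalized within each of 3 sets of arrays, as the values show. Per the submitters' processing notes limma was used. Groups were taken from the labels. Background was corrected with normexp using the detection p-values (offset 16), all 43 arrays were quantile-normalized together, and log2 was taken. Testing was limited to the 13577 of 22523 probes (60.3%) detected at p under 0.05 on 5 arrays or more. A group-means fit of 7 groups in limma 3.58.1 (R 4.3.3) gave all tests but that of the PND5 array sets. The latter came from a separate limma fit of group and set on the 21 PND5 arrays. All tests were two-sided and Benjamini-Hochberg adjusted over all tested probes. Errors after ± are SEs of log2 differences.

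Genes are named by the tested probe of highest mean. Symbols come from the platform annotation (13793 probes with 1 symbol and 8730 with none, which stay unnamed). Members, lists and rules were chosen with earlier results of these data known. Named genes are the 15 largest rises and 15 largest falls that hold, up to 6 holding and 3 unpassed members of each list, and defining markers; single list members given in passing (Lef1, Krt36, Csta, Ank1, Tbx18, Plin2, Mcpt4, Mcpt9, RT1-DOa and RT1-DMa) were chosen after their values were seen. A bound written "at least" sets each array of the dim age to the higher of its own level and its lowest detected signal. PND5 array sets are replicates 1 to 4 and 5 to 7, split by highest signal. Lists have no test. The procedure was tested on simulated data. Alternatives tried were other scalings, background corrections, filters, weights, blocks and leaving out each litter.

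The labels call the samples biological replicates, 1 per litter, and no pair of arrays held identical values. The number of litters limits the precision.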

Additional observations from a re-analysis of the deposited data

Results flagged for a closer look

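In groups of 6 or 7 litters, 49 of 528 tested gene and group pairs had 1 litter that lay far from the others by Dixon's criterion at 95%. Chance flags about 1 in 20 such groups. The values are normalized log2 signals, with the range of the other litters of the group in brackets where it helps.

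In the DBP100 study, replicate 3 was high in 4 muscle genes, with Ckm at 8.76 (others 4.81 to 6.28), Myh7 at 8.04 (5.00 to 5.58), Myog at 6.69 and Myod1 at 5.75, and also in Dlk1 at 12.08. Replicate 1 lay apart in Wfdc21 (6.25), Timp2 (8.36) and Ube2c (10.51). Replicate 2 lay apart in Krt33a (5.20), Scd (9.29), Mal (8.78, others 6.11 to 7.09) and Tpsb2 (9.35). Replicate 6 lay apart in Prph (8.91) and Fkbp5 (10.44).

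In the DBP500 study, replicate 6 was low in Timp2 at 5.07 (others 8.10 to 8.71), Srd5a3 at 4.89 (6.24 to 6.64), Cdkn1c at 7.90, Dlk1 at 10.50, Tbx3 at 6.90, Myocd at 7.53 and Ube2c at 10.07, and high in Syt1 at 7.54. Replicate 1 was low in Dgat2 (8.09) and Otor (8.07). Replicate 2 was low in Degs2 (7.34) and high in Krt16 (5.61), Hbg1 (9.12, others 6.63 to 7.48) and Gldn (9.60). Replicate 3 was low in Dsc3 (5.88) and high in Cd74 (5.14), Akr1c2 (5.79) and Bhlhe40 (7.53). Replicate 4 was low in Fbn2 (12.12), Cenpt (7.42) and Ccna2 (9.89). Replicate 5 was low in Ptn (9.20) and high in Shox2 (10.97).

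At PND5, replicate 1 was the low litter in Sox4 at 7.64 (others 9.10 to 9.78), Fbn2 at 9.46, Trps1 at 7.43, Lrp6 at 7.11, Cpa3 at 10.67, Fabp4 at 10.42, Srd5a3 at 6.76 and Cldn1 at 10.29. Sult2b1 was low in replicate 7 (8.78), Chaf1b in replicate 2 (6.51) and Serpinh1 in replicate 3 (7.09), and Tbx3 was high in replicate 6 (6.10).

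Scd was the named gene whose age difference in DBP500 litters differed from that in corn oil litters, by -1.14 on the log2 scale (0.69 against 1.84, each taken against GD20 litters of the DBP500 study, adjusted p = 0.0469 by limma).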

How the results depend on the processing

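Counts of probes stayed within 1.5 times of those reported under each alternative tried. Leaving out each corn oil litter in turn gave 8060 to 8354 passed probes (3485 to 3613 higher, 4557 to 4752 lower), 5520 to 5797 that hold (2566 to 2703 higher, 2954 to 3100 lower) and 2466 to 3080 that differ between the GD20 groups. Of the 163 named genes that hold, 2 lost their call against the mean of the GD20 groups after the median shift (Tagln and Dlk1). With PND5 replicates 5 to 7 alone 1 lost it (Psmb9), and none did under the other settings. Whether each gene still passed against each GD20 group alone was not followed gene by gene under these settings. The median shift turned the sign of 4 genes that do not hold: Gja1 (-0.84), Tp63 (-0.56), Col1a1 (-0.92) and Ccna2 (-0.39). It brought 3 more past the threshold as lower: Igf2 (-1.47), Mcm7 (-0.61) and Itgb4 (-0.56). Of 5643 list counts and medians over all alternatives, 5440 stayed within 1.5 times or kept their sign.

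Replicate numbers are shared across the corn oil groups but mark different litters. The deviations of same-numbered arrays from their group means correlated between -0.0874 and 0.115, over 0.1 in 2 of 18 pairs, so the numbers do not pair the samples. With the replicate number as a block 8231 probes passed (3546 higher, 4685 lower), 5766 hold and 2928 differ between the GD20 groups. With array set as a random block the estimated correlation was -0.00679 and no named gene lost its call against the mean of the GD20 groups. No array set holds arrays of both ages, and every GD20 group lies wholly within the set of its study. A set effect between ages, or between the GD20 studies, therefore enters the group differences, and this correlation cannot show it. Differences of genes near background are limited by signal: their size, not their call against the mean of the GD20 groups, depended on the background correction.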

Other observations

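Of 185 genes with several tested probes, 61 had at least 2 probes that hold, and in 12 of these genes the probes held in opposite directions. They were Dok4, Eef1a1, Fat4, Gpbp1, Gpr89b, Kif11, Mtrex, Pltp, Prkg1, Rev1, Usp3 and Zmynd11, a list made after the values were seen. Mtrex, a helicase of the nuclear exosome, had a probe that fell by 1.70 and one that rose by 1.63. Gpr89b, an anion channel of the Golgi, had -0.89 and 1.65. Zmynd11, a chromatin reader, had -0.31 on a bright probe (mean 11.95) and 1.02 on a dimmer one (7.80). Pltp, which transfers phospholipids between lipoproteins, had -0.55 and 0.73 on probes of similar brightness (means 9.41 and 10.47). Eef1a1, a translation elongation factor, had 3 bright probes between -0.49 and -0.30 and 1 dimmer probe at 1.10. Kif11, of the division list, had -0.55 on the probe used here and 0.63 on a dim one. Where on the transcripts these probes lie was not analysed here.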
